A study of Homo sapiens with 2 samples.

Results

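The chemokines, the small secreted proteins that attract leukocytes, and their receptors were followed in SW620 cells, an established colon carcinoma line derived from a lymph node metastasis. One array (CDR1AS) held total RNA of cells made to express CDR1AS, a circular RNA transcribed antisense to CDR1 and known for binding the microRNA miR-7, and 1 array (control) held total RNA of cells with control lentiviruses. The labels name neither the promoter of the vector nor whether the cells were a clone or a pool, and both cultures were grown in the same serum-supplemented medium. Probes were chosen by gene symbol alone: every CXC, CC, XC or CX3C ligand, every CXCR, CCR, XCR1 and CX3CR1 receptor, the atypical receptors named ACKR, and CCRL2. This gave 62 of 24459 gene probes and 58 of 18638 genes with a symbol, namely 13 CXC ligands, 21 CC ligands, 3 ligands of the XC and CX3C classes and 21 receptors.

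Chemokine classes are named for the spacing of the first cysteines of the protein, and each ligand signals through one or a few G protein-coupled receptors on the cells it attracts. Epithelial cells of the colon and carcinoma cells derived from them secrete several ligands when NF-kB, the transcription factor of inflammatory signalling, is active. Among these are ligands of CXCR1 and CXCR2, which attract neutrophils, CCL2, which attracts monocytes through CCR2, and CCL20, which attracts CCR6-bearing lymphocytes and dendritic cells. Atypical receptors bind ligands without signalling through G proteins and mostly remove them.

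A spot counted as above background where it exceeded the mean of the array's 384 blank spots by more than 2 SD, which placed the limit at 72.1 scanner units on the CDR1AS array and at 69.1 on the control array. The blanks averaged 69.5 ± 1.3 on the CDR1AS array and 65.9 ± 1.60 on the control array (SD over 384 spots), and positive-control spots, 24 of each kind, had SDs between 0.10 and 0.24 (log2) within an array. The brightest probe stood for a gene, and log2 ratios are the CDR1AS array minus the control array after normalization, on a scale with an offset of 50 that compresses the folds of dim genes. Each group held 1 array, so the differences have no replicate error and no test was made. None of the probes was named for CDR1 or its antisense RNA, so the expression of CDR1AS was not checked here.

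Of 11 markers of colon epithelium, 6 reached 2 times the limit on at least 1 array, and their list summed to 66997 scanner units over the blanks on the CDR1AS array and 71530 on the control array. EPCAM had 6334 on the CDR1AS array and 8538 on the control array, and KRT18, KRT19, VIL1, CDH1 and CDX2 were the other five. Of 8 leukocyte markers, PTPRC, CD3D and MS4A1 were above background on neither array, 5 were above it on both, and LYZ had 203 scanner units on the CDR1AS array and 201 on the control array. The summed intensity of the list over the blanks was 219 on the CDR1AS array and 225 on the control array. The same sums were 376 and 387 for 8 fibroblast markers, of which the collagen genes COL1A1, COL1A2 and COL3A1 were above background on neither array and DCN, LUM and PDGFRB reached 2 times the limit. They were 179 and 150.2 for 6 endothelial markers and 185 and 179 for 6 markers of HEK293 cells, a common packaging line for lentiviruses. In RNA from a whole culture, fewer cells that make a transcript and less transcript per cell cannot be told apart.

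Of the 48 family genes above background on at least 1 array, 7 differed by 2-fold or more between the arrays, all of them ligands. CXCL8, CXCL6, CXCL3, CXCL2, CCL2 and CCL20 were lower on the CDR1AS array, by 2.50- to 7.76-fold, and CCL26 was higher, by 2.34-fold. The 6 lower genes were 12.5% of the 48, against 0.575% of all 16685 genes measured that were 2-fold lower, and 1 was higher, against 0.755%. In either direction the background was 1.33%. The family's median log2 ratio was −0.02, against −0.01 over all genes measured. Of the 48, 8 reached 2 times the limit on both arrays, against 7396 of the 16685. Most members were therefore dim, and the offset draws the ratios of dim genes toward 0. By class, the median was −0.26 over 10 CXC ligands, −0.02 over 19 CC ligands, 0.11 over 3 XC and CX3C ligands and −0.01 over 16 receptors.

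**Figure D1:**
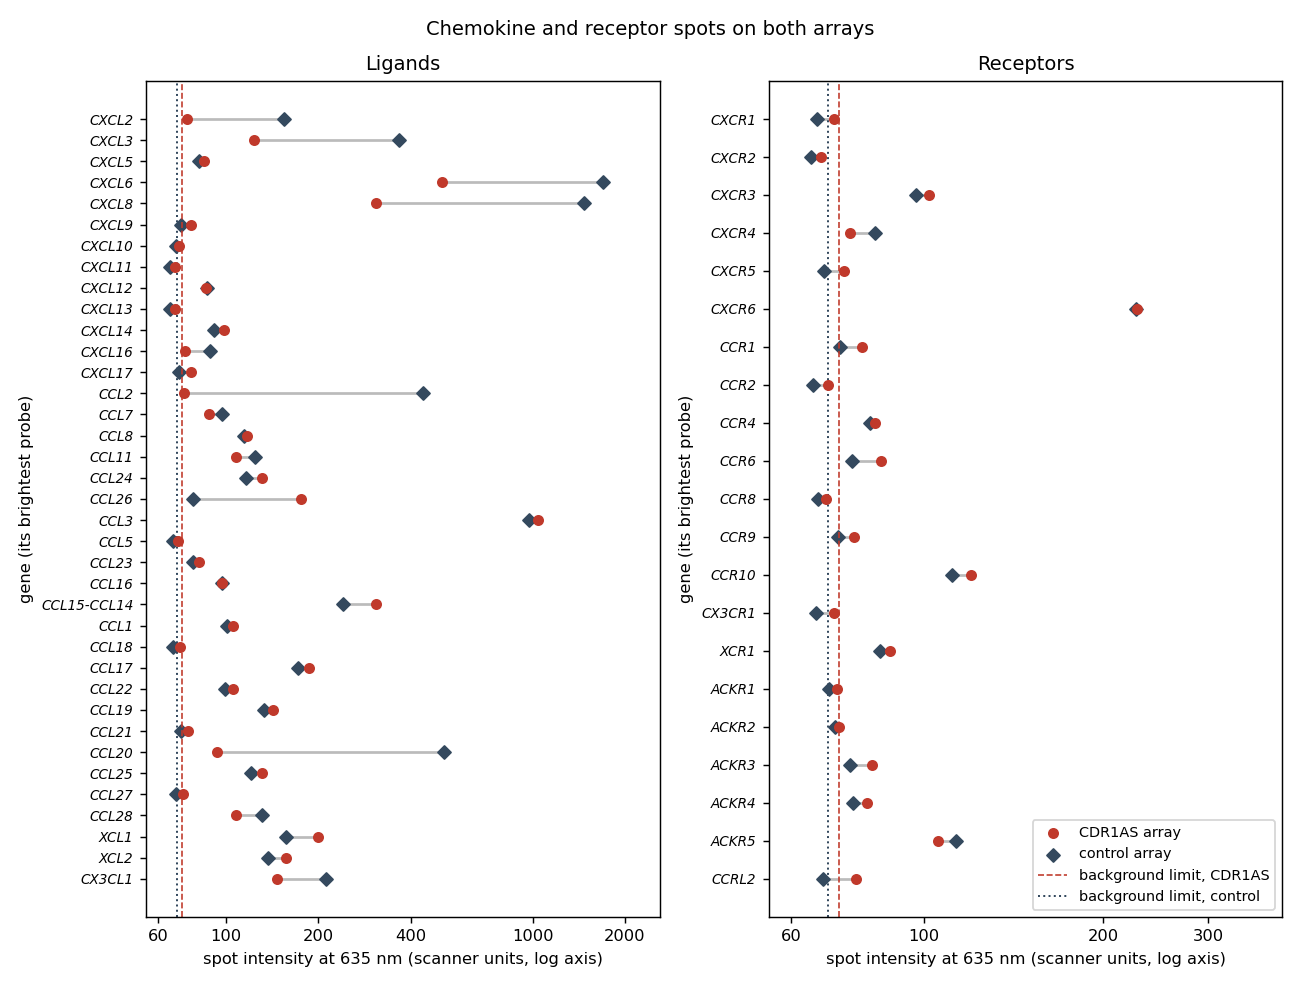
Spot intensity (scanner units, log axis) of each chemokine ligand and receptor gene on the CDR1AS array (circles) and the control array (diamonds), with each array's background limit as a vertical line. The circles of CXCL8, CXCL6, CXCL3, CXCL2, CCL2 and CCL20 lie far left of the diamonds, that of CCL26 lies right of its diamond, and most receptors lie close to the limits; brightness is not comparable between probes.

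The bases just before the transcription start are shown for the lowered ligands with an entry in the promoter table, because these genes are known as NF-kB targets, and for CXCL5 and CCL26 as relatives that were not lower. The sequences are from RefSeq on GRCh38.p14, 150 bases each, 5′ to 3′ on the gene's strand and ending at the base before the start, with matches to the NF-kB motif in capitals. The motif was searched on both strands in 2 forms, the general NF-kB consensus and GGAATTTCC, the form in CXCL8, which can lie within the first.
CXCL8 (chr4:73740419-73740568, + strand): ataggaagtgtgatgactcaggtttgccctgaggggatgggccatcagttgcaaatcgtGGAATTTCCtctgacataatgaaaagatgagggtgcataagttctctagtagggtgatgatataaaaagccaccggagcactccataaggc
CXCL6 (chr4:73836528-73836677, + strand): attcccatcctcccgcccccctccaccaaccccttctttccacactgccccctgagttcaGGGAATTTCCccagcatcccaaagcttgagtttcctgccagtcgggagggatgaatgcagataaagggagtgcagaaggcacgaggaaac
CXCL3 (chr4:74038690-74038839, - strand): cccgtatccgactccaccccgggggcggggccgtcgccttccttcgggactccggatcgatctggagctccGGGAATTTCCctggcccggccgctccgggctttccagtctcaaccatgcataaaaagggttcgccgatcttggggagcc
CXCL2 (chr4:74099196-74099345, - strand): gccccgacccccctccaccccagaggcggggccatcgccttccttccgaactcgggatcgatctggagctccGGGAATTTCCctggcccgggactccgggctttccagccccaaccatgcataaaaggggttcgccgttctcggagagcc
CCL20 (chr2:227813692-227813841, + strand): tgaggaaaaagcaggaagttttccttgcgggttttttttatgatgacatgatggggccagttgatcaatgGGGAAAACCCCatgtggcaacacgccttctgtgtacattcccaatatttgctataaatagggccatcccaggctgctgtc
CXCL5 (chr4:73998678-73998827, - strand): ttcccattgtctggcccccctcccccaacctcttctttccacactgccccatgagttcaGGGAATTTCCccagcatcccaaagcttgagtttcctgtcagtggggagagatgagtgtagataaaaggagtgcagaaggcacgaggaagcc
CCL26 (chr7:75789747-75789896, - strand): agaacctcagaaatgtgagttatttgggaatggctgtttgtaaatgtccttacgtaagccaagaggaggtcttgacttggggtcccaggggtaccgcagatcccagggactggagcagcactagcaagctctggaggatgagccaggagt

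Over the 250 bases before the start, GGAATTTCC was present in 7 of the 42 family promoters in the table, and in 0.428% of all 27305 promoters. The 7 were those of CXCL2, CXCL3, CXCL5, CXCL6 and CXCL8, which are the measured ligands of CXCR1 and CXCR2 among the chosen symbols, and of CXCL10 and CXCL11. The form was the one in CXCL8, so the match there was given in advance. The printed sequences of CXCL2 and CXCL3, and those of CXCL5 and CXCL6, are much alike, so the 7 are not independent. The general consensus was present in 8 family promoters, among them those of CXCL2, CXCL3, CXCL5, CXCL6, CXCL10 and CCL20, and in 5.08% of all promoters. The matches of CXCL2 and CXCL3 began 78 and 79 bases before the start, those of CXCL6 and CXCL5 90 and 91 bases before it, and in each the letters were GGGAATTTCC. CXCL5, with the same letters as CXCL6, was not lower, but at 1.18 times the limit on both arrays it had little room to fall. CXCL10 and CXCL11 were above background on neither array, so a lower level of them could not have been seen. Motifs of the transcription factors AP-1 and STAT and the TATA box were searched as well and are not in capitals above. AP-1 was present in 7 of the 42 family promoters, that of CXCL8 among them, and in 6.60% of all promoters. STAT was present in 3 and in 5.35% of all, and TATA in 12, those of CXCL8 and CCL20 among them, and in 11.1% of all. Whether a match and a lower signal go together was not tested for any of these motifs. A match is a description of the letters in this window and not a site.

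Of 5 measured ligands of CXCR1 and CXCR2 among the chosen symbols, 4 were at least 2-fold lower on the CDR1AS array. PPBP, a CXCR2 ligand outside those symbols, had 103 scanner units on the CDR1AS array and 102 on the control array, a log2 ratio of −0.10. CXCL8, also called interleukin-8, had a spot of 308 scanner units on the CDR1AS array and 1469.6 on the control array, a log2 ratio of −2.39 and a 5.25-fold lower level. CXCL6, or granulocyte chemotactic protein, had 506 on the CDR1AS array and 1701 on the control array, a log2 ratio of −1.88. These spots were well above the limit on both arrays, so their folds were little compressed: in the authors' deposited value table CXCL8 was 6.12-fold and CXCL6 3.90-fold lower.

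CXCL3 and CXCL2 are close relatives of one another in the growth-regulated family of neutrophil attractants. Both were over 2 times the limit on the control array and under 2 times the limit on the CDR1AS array. CXCL3 had 123 scanner units on the CDR1AS array and 366 on the control array, a log2 ratio of −1.79. CXCL2 had 74.5 on the CDR1AS array, just over the limit of 72.1, and 155 on the control array, a log2 ratio of −1.32. The transcripts of this family are alike in sequence and the probe sequences were not used here, so signal shared between CXCL2 and CXCL3 cannot be told apart. CXCL5, an epithelial neutrophil attractant, was dim on both arrays, with 84.9 on the CDR1AS array and 81.7 on the control array, and a log2 ratio of −0.03.

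CCL2 and CCL20 had the lowest ratios of the family. CCL2, the monocyte attractant, had a spot of 73.2 on the CDR1AS array, 2.89 blank SD over the blanks, and of 439 on the control array, 233 blank SD over them. Its log2 ratio was −2.96, which is 7.76-fold, with the CDR1AS signal at the edge of detection. CCL20, which gut epithelium makes over lymphoid follicles, had 93.6 on the CDR1AS array and 514 on the control array, a log2 ratio of −2.76 and a 6.78-fold lower level. In the authors' deposited value table CCL2 was 105-fold lower, from values of 1.7 on the CDR1AS array and 177.9 on the control array. In the authors' deposited table CCL20 was 19.4-fold lower and CXCL2 18.4-fold lower, with deposited values of 11 and 2.3 on the CDR1AS array, against 213.8 and 42.4 on the control array.

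The scanner's local background column bears on these ratios. On the control array it read 506 around the CCL20 spot of 514 and 1255 around the CXCL8 spot of 1469.6, whereas on the CDR1AS array it read 79.3 and 95.8. With it subtracted, CCL20 was not lower (log2 ratio 0.05), CXCL8 (−0.71) and CXCL2 (−0.79) were within 2-fold, and CCL2 (−1.11), CXCL6 (−1.14) and CXCL3 (−1.10) remained past it. That column followed the spot's own brightness over all gene probes, with Pearson's r of 0.942 on the CDR1AS array and 0.977 on the control array across spots on the log scale, which are not independent replicates. It was therefore not subtracted in the values given elsewhere.

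CCL26 was the family gene that was higher on the CDR1AS array. CCL26, or eotaxin-3, attracts eosinophils through CCR3, and its spot was 176 on the CDR1AS array and 78.3 on the control array, 81.7 and 7.72 blank SD over the blanks. Its log2 ratio was 1.23, and in the authors' deposited value table it was 8.24-fold higher. With the local background subtracted the log2 ratio was 0.24. The other CCR3 ligands differed little: CCL24 had 131 on the CDR1AS array and 116 on the control array (0.09), and CCL11 had 108 and 124 (−0.34).

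**Figure D2:**
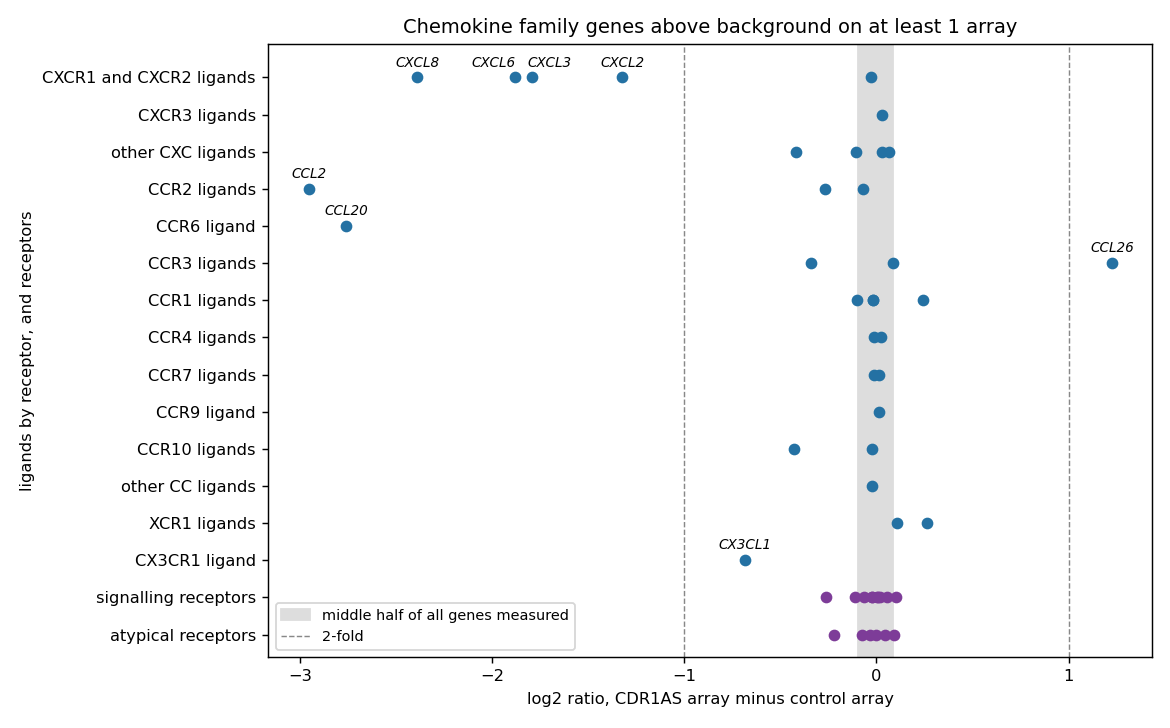
Log2 ratio (CDR1AS array minus control array) of the 48 family genes above background on at least 1 array, with ligands grouped by the receptor they bind and each point a gene. The grey band runs between the quartiles of all genes measured and the dashed lines mark 2-fold; 6 ligands lie below the lower line, CCL26 lies above the upper one, and the 16 receptors lie between −0.26 and 0.10.

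The membrane-bound chemokines were lower by less than 2-fold. CX3CL1, or fractalkine, which tethers CX3CR1-bearing cells, had 147 scanner units on the CDR1AS array and 212 on the control array, a log2 ratio of −0.68. It was the one family gene that joined the 6 lower genes at a threshold of 1.5-fold. At that threshold 7 family genes were lower, against 2.22% of all genes, and 1 was higher, against 2.61%, with 4.83% in either direction. CXCL16, the ligand of CXCR6, had 73.8 on the CDR1AS array, near the limit, and 88.7 on the control array, a log2 ratio of −0.42. In the authors' deposited value table, which does not add an offset, CXCL16 was 5.45-fold lower, from values of 2.0 on the CDR1AS array and 10.9 on the control array.

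Ligands of mucosal and lymphoid homing showed small differences. CCL28, an epithelial ligand of CCR10, had 108 on the CDR1AS array and 132 on the control array, a log2 ratio of −0.43. CCL25, the CCR9 ligand of the gut, had 131 and 121 (0.01), and CCL19, a CCR7 ligand, had 143 and 133 (0.01). CCL17, which attracts CCR4-bearing T cells, had 186 on the CDR1AS array and 171 on the control array (0.02), and its partner CCL22 had a log2 ratio of −0.01.

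Most other CC ligands differed little. CCL3, a macrophage inflammatory protein that binds CCR1, had 1041 scanner units on the CDR1AS array and 973 on the control array, a log2 ratio of −0.02. The probe of the read-through transcript CCL15-CCL14 had 308 on the CDR1AS array and 242 on the control array, a log2 ratio of 0.24 (0.69 with the local background subtracted). Of the 16 measured CC ligands other than CCL2, CCL20 and CCL26, 11 were below 0 and 5 above, between −0.43 and 0.24. Over all genes measured, 52.7% were below 0. Those not yet named were CCL1, CCL7 (−0.27), CCL8, CCL16, CCL21, CCL23 and CCL27, the last above background on the CDR1AS array alone. The value of CCL27, counted below 0, is thus a bound and does not show a lower level.

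XCL1 and XCL2, near-identical ligands of XCR1 on dendritic cells, were slightly higher. XCL1 had 199 on the CDR1AS array and 157 on the control array (0.26), and XCL2 had 157 on the CDR1AS array and 137 on the control array (0.11). Signal shared between the pair cannot be told apart without the probe sequences.

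The interferon-induced ligands of CXCR3 were at or below the limit of detection in these cells. CXCL9 was just above background, with 76.8 on the CDR1AS array and 71.4 on the control array (0.03), and CXCL10 and CXCL11 were above background on neither array. CXCL12, the ligand of CXCR4 and ACKR3, had 86.3 and 86.9 (−0.11), and its other probe was above background on neither array. CXCL14 (0.03) and CXCL17 (0.06), ligands made by epithelia, differed little. CXCL13, CCL5 and CCL18 were above background on neither array.

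None of the 16 measured receptors was past 2-fold. CXCR4, the CXCL12 receptor, had the lowest ratio, with 75.4 scanner units on the CDR1AS array and 82.9 on the control array (−0.26). It was 3.04-fold lower in the authors' deposited value table, from values of 2.7 on the CDR1AS array and 8.2 on the control array. CCR6, the CCL20 receptor, had the highest ratio, with 84.9 on the CDR1AS array and 75.7 on the control array (0.10). CXCR6, the CXCL16 receptor, had 228 on both arrays, a log2 ratio of −0.11 (0.58 with the local background subtracted).

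The receptors of the lowered ligands were mostly undetected. CXCR1 and CXCR2, which bind CXCL8, CXCL6, CXCL3 and CXCL2, and CCR2, which binds CCL2, were above background on neither array, as were CCR8 and CX3CR1. The remaining measured signalling receptors, CXCR3, CXCR5, CCR1, CCR4, CCR9, CCR10 and XCR1, had log2 ratios between −0.06 and 0.05. CXCR5 was above background on the CDR1AS array alone.

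Among the atypical receptors, ACKR5, formerly named GPR182, had 106 on the CDR1AS array and 113 on the control array (−0.22), but its other probe gave 0.06. ACKR3, a scavenger of CXCL12, had 81.8 on the CDR1AS array and 75.3 on the control array (0.05). ACKR2, a scavenger of inflammatory CC ligands, had a log2 ratio of −0.08. ACKR4, a scavenger of CCL19, CCL21 and CCL25, had 80.3 on the CDR1AS array and 76.1 on the control array. ACKR1 was above background on the control array alone and CCRL2 on the CDR1AS array alone. CCRL2, which binds the attractant chemerin, had 77.1 on the CDR1AS array and 67.9 on the control array, and its log2 ratio was at least 0.09.

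Except for CCL20, which has no other chemokine gene among its neighbours, the lowered ligands sit in gene clusters that also hold chemokine genes within 2-fold. On chromosome 4, CXCL8 and CXCL6 are followed by PF4V1, PF4 and PPBP, platelet chemokine genes outside the chosen symbols, then by CXCL5, CXCL3 and CXCL2. PF4V1 had a log2 ratio of 0.28, PF4 of −0.04 and PPBP of −0.10, all lying between genes that were at least 2-fold lower. Beyond the cluster RASSF6 (0.65) and AFP (−0.66) lay on one side and MTHFD2L (−0.03) and EREG (0.04) on the other. On chromosome 17, CCL2 (−2.96) is followed by CCL7 (−0.27), CCL11 (−0.34), CCL8 (−0.07) and CCL1 (−0.02). CCL26 and CCL24 are neighbours on chromosome 7, and CCL24 was not higher by 2-fold.

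**Figure D3:**
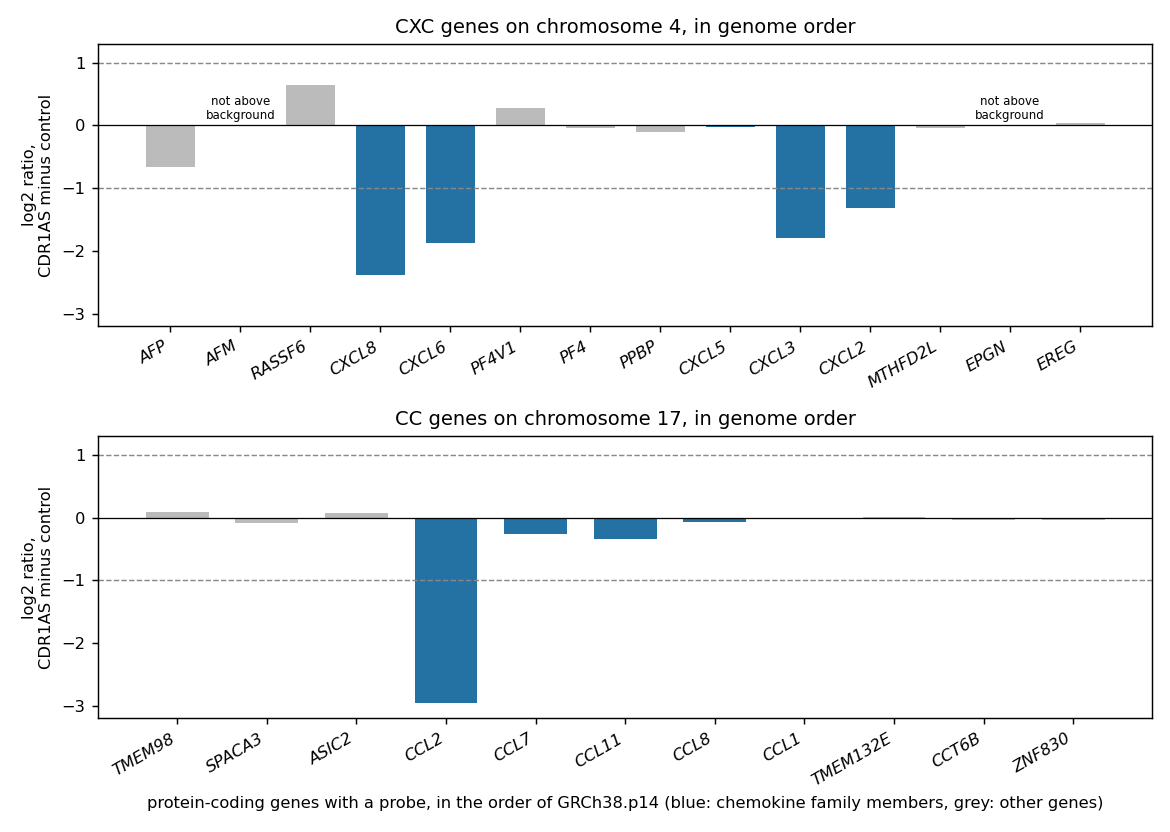
Log2 ratio (CDR1AS array minus control array) of protein-coding genes with a probe around the CXC cluster of chromosome 4 and the CC cluster of chromosome 17, in genome order. Blue bars are family members, grey bars other genes and dashed lines 2-fold; CXCL8, CXCL6, CXCL3 and CXCL2 are low on both sides of CXCL5 and the platelet chemokine genes, and CCL2 is low beside 4 CC ligands within 2-fold.

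Among inducers, transcription factors and inhibitors that act on chemokine transcription, JUN was past 2-fold in the main setting. Of 25 measured, 17 lay within 0.25 of 0 and none was 2-fold lower, while 19 were below 0 and 6 above, with a median of −0.11, where 52.7% of all genes were below 0. NFKBIA, which encodes the NF-kB inhibitor that NF-kB itself induces, had 846 scanner units on the CDR1AS array and 1533 on the control array (−0.95). The NF-kB subunit gene REL had 124 and 152 (−0.43, other probe −0.20), and IKBKG, a subunit of the kinase that activates NF-kB, had 214 and 149 (0.46). JUN, a subunit of the transcription factor AP-1, was 3.73-fold higher, with 703 on the CDR1AS array and 183 on the control array (1.90). With the local background subtracted JUN had a log2 ratio of 0.97. In that setting NFKBIA (−1.30), NFKB2 (−1.70) and TNFRSF1A (−1.24) were past 2-fold lower and CEBPB (1.90) past 2-fold higher. Of the inducing cytokines, TNF was above background on neither array, IL1B (−0.07) lay near the limit on both, and IL1A had 180 on the CDR1AS array and 163 on the control array (0.05).

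Of 7 genes that act on the decay or stability of chemokine mRNA, ZFP36L1 was past 2-fold in the main setting. With the local background subtracted it had a log2 ratio of 2.20, and HNRNPD (5.57) and ELAVL1 (1.47) were also past 2-fold higher. ZFP36L1, which binds AU-rich elements and promotes decay of the mRNA, had 4836 on the CDR1AS array and 1076 on the control array, a 4.18-fold higher level (log2 ratio 2.06), but its other probe gave −0.02. Its relatives did not follow it: ZFP36L2 had 323 on the CDR1AS array and 527 on the control array (−0.85), and ZFP36 had 407 and 359 (0.08). HNRNPD, another binder of AU-rich elements, had a log2 ratio of −0.20, and the list's median was −0.08.

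Genes of receptor signalling and of ligand processing were within 2-fold in the main setting, but not in every setting. With the local background subtracted, the signalling genes RAC1 (5.27) and GNB2 (−1.53) were past 2-fold, against 0.22 and −0.23 in the main setting. The authors' deposited value table gave MMP7 4 on the CDR1AS array and 29.9 on the control array, GNG2 23.4 and 6.7, EXT1 53.3 and 22.5, and GNAI1 39.6 and 92.1. Of 26 measured signalling genes, 14 were below 0 and 12 above, with a median of −0.02. GNAI1, an inhibitory G protein alpha subunit, had 156 on the CDR1AS array and 259 on the control array (−0.91), and GRK6, a receptor kinase, had a log2 ratio of −0.29. The G protein gamma subunit genes GNG12 (413 on the CDR1AS array and 247 on the control array, 0.66) and GNG2 (0.60) were highest.

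Of 17 measured genes of ligand processing, matrix binding and receptor sulfation, 8 were below 0 and 9 above, with a median of 0.02. MMP7, an epithelial matrix metalloproteinase, had 78.2 on the CDR1AS array and 129 on the control array (−0.94). EXT1 (0.69) and EXT2 (−0.48, other probe 0.09), the paired enzymes that polymerize heparan sulfate, went opposite ways, and the glypican gene GPC1 had 0.54, with −0.14 at its other probe. Among PPBP, PF4, PF4V1, CKLF and CD74, measured genes listed beside the chosen symbols, CKLF (−0.30) was lowest and PF4V1 highest. CD74 is not itself a chemokine gene. With the local background subtracted CKLF had a log2 ratio of −1.63.

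**Figure D4:**
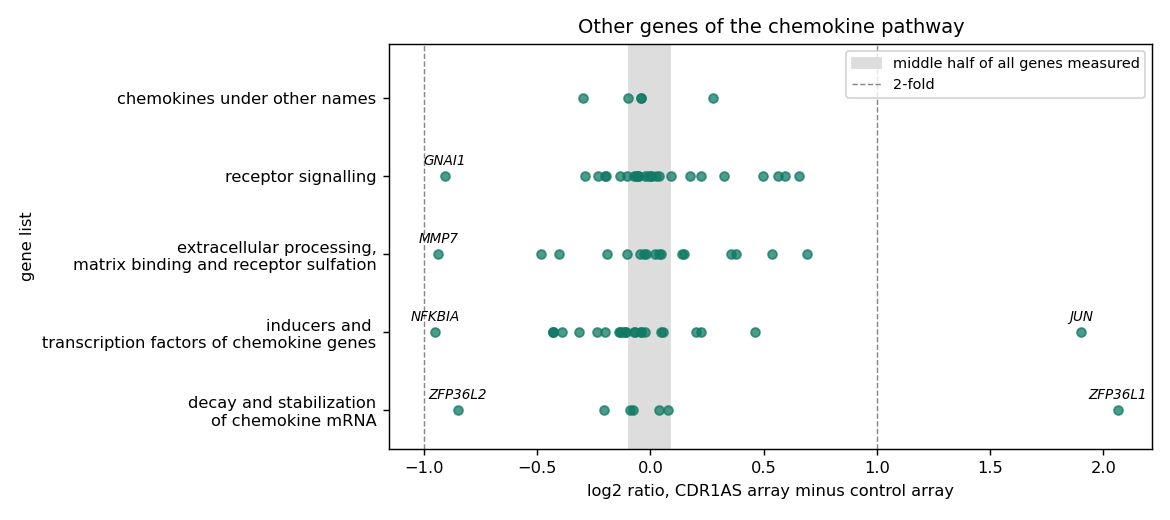
Log2 ratio (CDR1AS array minus control array) of other genes of the chemokine pathway, each point a measured gene of 1 of 5 lists. The grey band runs between the quartiles of all genes measured and the dashed lines mark 2-fold; JUN (1.90) and ZFP36L1 (2.06) lie past the upper line and no gene of these lists lies past the lower one.

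How far each of these ratios depended on the processing is shown by setting the main values beside the alternatives. CXCL6 and CXCL3 were at least 2-fold lower in every setting that kept them, and so was CCL2. CXCL8 was at least 2-fold lower in all settings but the subtraction of the local background, and the same was true of CXCL2 and CCL20 among the settings that kept them. CCL26 was at least 2-fold higher in all settings that kept it apart from that subtraction.

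**Figure D5:**
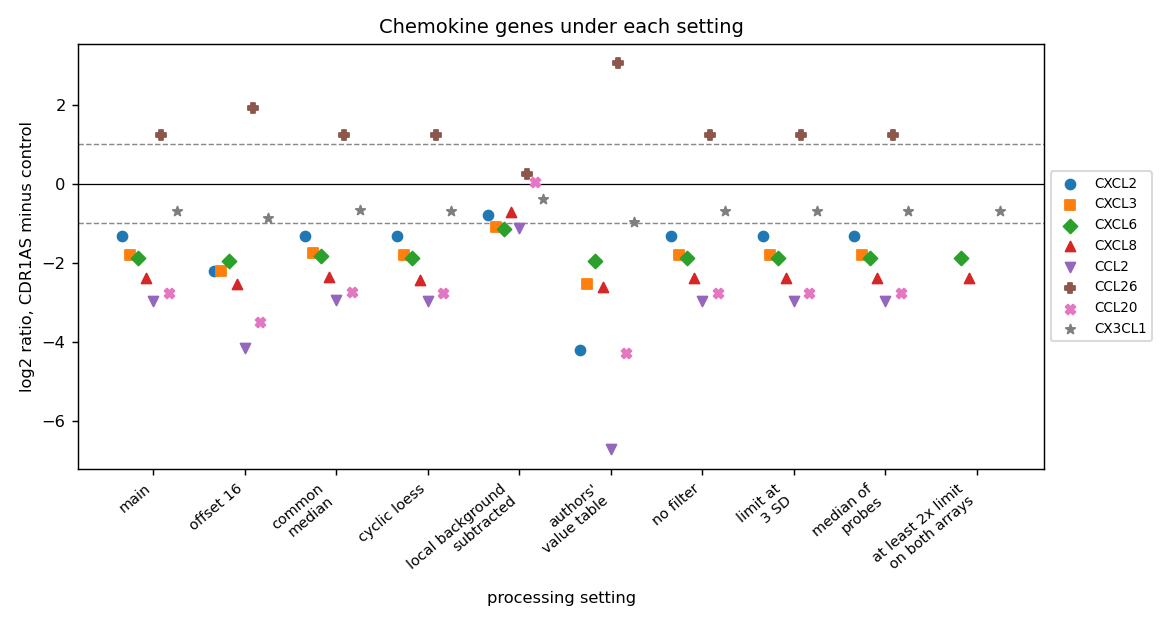
Log2 ratio (CDR1AS array minus control array) of 8 chemokine genes under the main setting and each alternative, with dashed lines at 2-fold. A filter at 2 times the background limit on both arrays kept CXCL6, CXCL8 and CX3CL1 of these genes, and under the subtraction of the local background all 8 lie closer to 0 than in the main setting.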

How the data were processed

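Per the file headers, the intensity that the authors deposited is a spot's median in the red channel, with straight-line fits between scanner gains. The authors' deposited value table is a straight line of that intensity (largest residual 0.0559 on the CDR1AS array and 0.0510 on the control array), not centred by gene, with its zero near the blank level and a median of 25 on both arrays. Here limma 3.58.1 in R 4.3.3 applied normexp without the local background (offset 50), quantile normalization over 2 arrays and log2. The steps were also run on data simulated from the control array. Changes were put into its brighter probes only, so that run does not cover dim genes, as most members were. Of 24459 gene probes, 21706 had 1 symbol, 0 several and 2753 none, and 21674 matched a RefSeq gene of GRCh38.p14 by gene identifier. A gene above background on 1 array only was given a bound. Members and lists were chosen with earlier results of these data known. Named members were those past 2-fold or at 2 times the limit on 1 array; of each list, those past 2-fold and the 2 highest and 2 lowest, and others were named after their values were seen. Array number limits the precision.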

Additional observations from a re-analysis of the deposited data

How the results depend on the processing

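With 1 array per group, no alternative has a replicate error. No paired analysis was possible because each group holds 1 array. The count of family genes at least 2-fold lower was 6 in the main setting, 8 in the authors' value table, where CXCL16 and CXCR4 joined, 3 with the local background subtracted, and 2 with a filter at 2 times the limit on both arrays, which kept 8 family genes and by its construction removed 4 of the lower ones, whose CDR1AS spots were under 2 times the limit. The count at least 2-fold higher was 1 in the main setting, 0 under both of these, and 2 in the authors' value table, where CCRL2 joined CCL26. CCRL2 had 3.5 there on the CDR1AS array and no value on the control array. Its ratio is therefore a bound, with the control array's lowest value put in. The median of the CXC ligands was −0.53 with an offset of 16, −0.74 in the authors' value table and −2.14 with the stricter filter, which kept 2 of them, against −0.26; it was nearer 0 with the local background subtracted (−0.0327) and with no filter (−0.0671). CCL20 had a log2 ratio of 0.0496 with the local background subtracted, against −2.76, and the cause was not tested. Of all 16685 genes measured, 126 (0.755%) were higher and 96 (0.575%) lower in the main setting. With an offset of 16 these were 228 (1.37%) and 172 (1.03%), and with the local background subtracted 748 (4.48%) and 548 (3.28%). In the authors' value table, with 17004 genes measured and 49 of them in the family, 674 (3.96%) were higher and 446 (2.62%) lower. The stricter filter kept 7396 genes, of which 75 (1.01%) were higher and 65 (0.879%) lower. Median scaling, cyclic loess, no filter, a limit at 3 SD and the median of a gene's probes kept the family counts at 6 and 1. Signal over background limits most members, since 8 of 48 reached 2 times the limit on both arrays, against 7396 of all 16685 genes measured.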

Other observations

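Around the CXCL8 spot on the control array the local background column read 1255, while the 8 adjacent positions had a median of 74.6 and ranged between 49.7 and 1737. On the CDR1AS array it read 95.8 around CXCL8, with a median of 71.2 at the adjacent positions. After plain subtraction CXCL8 would keep 212 scanner units on the CDR1AS array and 215 on the control array, and CCL20 14.3 and 8.07. The positions around CCL20 were themselves bright, with local background medians of 513 on the CDR1AS array and 772 on the control array. At CCL20 itself the column read 79.3 on the CDR1AS array, under the lowest adjacent reading of 140. On the control array it read 506, within the adjacent range of 216 to 1163. The part of the local background in these ratios was not tested beyond the values given.

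Genes next to CCL20 and CCL26 in the genome were dim or little different. Around CCL20 on chromosome 2, DAW1 had a log2 ratio of −0.06 and PID1 of −0.02. Around CCL26 on chromosome 7, HIP1 had 0.04, RHBDD2 0.23 and POM121C 0.19. Of the 21 receptor genes, 11 lie on chromosome 3.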
